A study of Mus musculus with 6 samples.

Results

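The regions described here are the stretches of the mouse genome that gave the brightest input signal on a DNA methylation tiling array. They were selected on their input signal, as autosomal runs of 3 or more array probes, each starting at most 500 bp after the previous probe, whose input averaged 2.5 or more on the log2 scale above the array median over their probes and all 6 arrays. Of 21604 such autosomal runs, 234 met this limit, or 1.08%, out of 22574 runs on all chromosomes. Bright runs in 2 stretches, at 59.8 to 62.0 Mb of chromosome 4 and 20.7 to 24.6 Mb of chromosome 7, were not counted among them and numbered 98.

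The arrays measured hypothalamic DNA of mouse offspring aged 16 weeks. In 3 samples the dams had been treated with inulin, a fermentable plant fibre, and in the other 3 the dams were labelled as obese, with a maternal high fat diet given as the group. The labels give no strain, sex or litter, and do not say which diet the inulin dams ate. On each array, DNA pulled down with an antibody against methylated cytosine (MeDIP, labelled Cy5) was hybridised together with genomic DNA of the same group that was not immunoprecipitated (input, labelled Cy3). Whether the 3 samples of a group are from different litters is not stated either. The p-values cover no more than the sample-to-sample spread seen here.

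In MeDIP, the signal of a probe rises with the amount of methylated DNA that matches it, and the input channel measures how much matching DNA was there to begin with. A sequence present in many near-identical copies, such as a segmental duplication, a tandem gene cluster or a satellite-like repeat, sends DNA from all of its copies to each matching probe, so its input is bright. The methylation of a single copy cannot then be read from the array, because the probe reports a sum over copies. Mice can differ in the number of copies they carry.

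All signals below are log2 values centred on the median of their array, and the ratio is the centred log2 of MeDIP over input. Positions are those of the mm9 mouse build given in the array files, and no gene annotation of that build was used. Input spots rose above background for 94.4% to 96.4% of probes per array, and MeDIP spots for 77.3% to 85.7%. Of the spots in the 234 regions, 98.4% of MeDIP spots were above background and 0 were saturated.

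The scanner software marked 10.5% of the spots in the bright regions as outliers, against 2.16% over all autosomal regions. The share was 19.9% on the array of obesity replicate 2 and between 7.12% and 10.9% on the other 5. A marked spot was replaced by the value that its probe and its array predicted within the region, and a region lacking an array altogether was fitted without it. The choice of members kept marked spots, as its rule does not mention them. Without those spots 197 regions would have met the limit. The region chr9:62524507-62526034, at 2.516 by the rule, averaged 1.53 after replacement and with 1 of its 8 probes left out.

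The bright regions were unevenly spread over the genome. Chromosome 5 held 40 of them among its 1304 regions (3.07%), chromosome 4 held 41 of 1399 (2.93%) and chromosome 14 held 19 of 816 (2.33%), whereas chromosome 11 held 5 of 1664 (0.300%). Members were found on 16 chromosomes. A region had a median of 6 probes (range 3 to 13) and spanned a median of 1425 bp.

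Of the 234 regions, 96 lay in 10 stretches of 5 or more members whose neighbours were at most 500 kb apart, and the other 138 were scattered. The longest run of members, 21 of the 25 regions tiled there, lay at chr4:145205822-147185118. The other stretches on chromosome 4 were at chr4:73265346-73329827 (6 of 6 regions) and chr4:88426749-88452491 (7 of 9). Chromosome 5 had stretches at chr5:14914398-15221207 (9 of 9), chr5:26330772-26584706 (7 of 7) and chr5:94100191-96205074 (12 of 13). Chromosome 2 had stretches at chr2:175032082-176493378 (15 of 19) and chr2:177248450-177814338 (7 of 8). The remaining stretches were at chr7:33111768-34152537 (6 of 7) and chr12:88854836-89513371 (6 of 13). Stretches of a chromosome are called the first, the second and the third below, in the order of their positions.

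Several stretches repeated at a regular spacing. In the first stretch on chromosome 4, 5 members started 15119, 15103, 15113 and 15165 bp apart. In the second, successive starts were 2912, 5851, 2846, 2991, 2839 and 5962 bp apart. The third held 5 pairs of members whose starts were 935, 969, 1002, 969 and 976 bp apart.

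The design of the probes repeated as well. A total of 32 of the 234 members (13.7%) had exactly the same probe lengths and probe spacing, read in either direction, as another region on the array, against 213 of all 21604 autosomal regions (0.986%). The share was 27 of 96 in stretches (28.1%) and 5 of 138 among scattered members (3.62%), and it was 52 of 98 in the 2 stretches that were not counted. Over members with 5 or more probes, 26 of 163 (16.0%) shared a run of 5 probes with another region, against 2.69% of all autosomal regions that long.

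Members that shared a layout with another member had almost the same brightness, probe by probe. All of them had passed the rule on mean brightness. The 181 autosomal regions with a repeated layout outside the members were not compared in this way. In 14 such groups that held 31 members, 76 probe positions could be compared. The input of the regions of a group differed by a median of 0.07 and by at most 0.28. The regions chr14:43376243-43377961 and chr14:43693610-43695328, 9 probes each and 0.317 Mb apart, both averaged 3.09. Their mean ratios were −2.30 and −2.29. The regions starting at 175261035, 176096936 and 176420785 on chromosome 2, 7 probes each, averaged between 3.33 and 3.38. The other member with a repeated layout, on chromosome 9, shared a layout of 3 probes of 45 bp with a region of chromosome 7 whose input was 1.45 against its own 3.90.

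**Figure D1:**
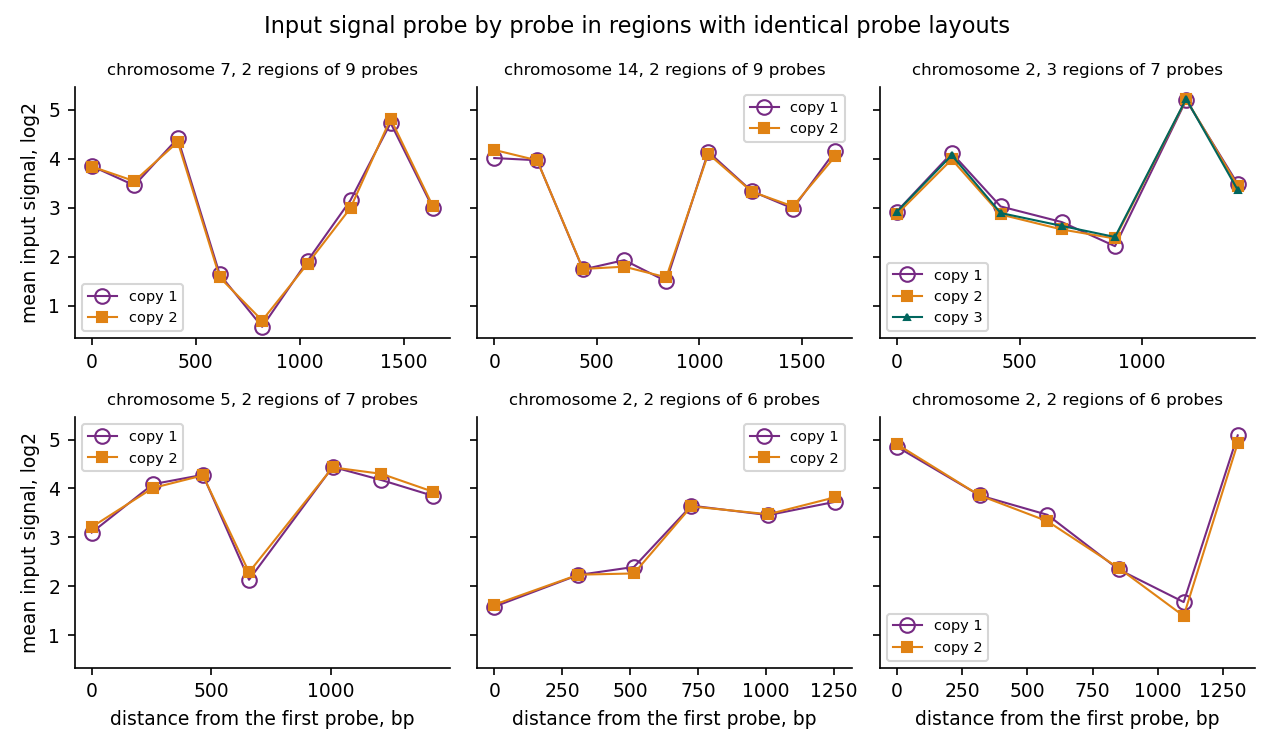
Mean input signal over 6 arrays (log2, relative to the array median) of each probe against its distance in bp from the first probe, for 6 groups of bright regions with identical probe lengths and spacing. Each colour and marker is 1 region, called a copy in the legend, and no sequence was compared. The curves of the regions lie on each other although neighbouring probes differ several fold.

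The brightest member, chr4:146505150-146506536, averaged 5.45 over 7 probes, and all 7 were above 2.5. It was followed by chr4:147016118-147016582 at 5.31 and chr7:15974178-15974647 at 5.19. The next in order were chr7:66933838-66935376 at 5.16, chr7:16132487-16132956 at 5.14, chr4:145682677-145684282 at 5.14, chr4:147017094-147017560 at 5.03 and chr7:16335588-16336057 at 4.81. Of these 8, 4 lay in the third stretch on chromosome 4. At the other end, the 3 members nearest the limit averaged 2.506, 2.510 and 2.516, and the 3 regions just below it averaged 2.496, 2.499 and 2.4998.

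The median input was 3.05 over all members, 3.39 in stretches and 2.94 among scattered members, against 0.08 over all autosomal regions. The median MeDIP signal was 2.09 over all members, 1.38 in stretches and 2.62 among scattered members, against 0.13. The median ratio was −1.60, −2.07 and −0.39, against −0.05. Input chose the members and is also the denominator of the ratio, so these levels are a description.

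Members in stretches had a low ratio almost throughout: 89 of 96 (92.7%) lay under −1 and 0 lay above 0. Among scattered members 50 of 138 (36.2%) lay under −1 and 46 (33.3%) above 0, while 10.1% and 46.4% of all autosomal regions did. The exception in stretches was the second stretch on chromosome 4, whose median ratio was −0.05. The lowest ratios were −3.18 at chr5:94100191-94101693, −3.13 at chr4:146512936-146514527 and −3.12 at chr7:20685501-20686919. The highest were 0.67 at chr10:127630716-127632155, 0.66 at chr10:57694929-57696400 and 0.64 at chr10:6605679-6606240.

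**Figure D2:**
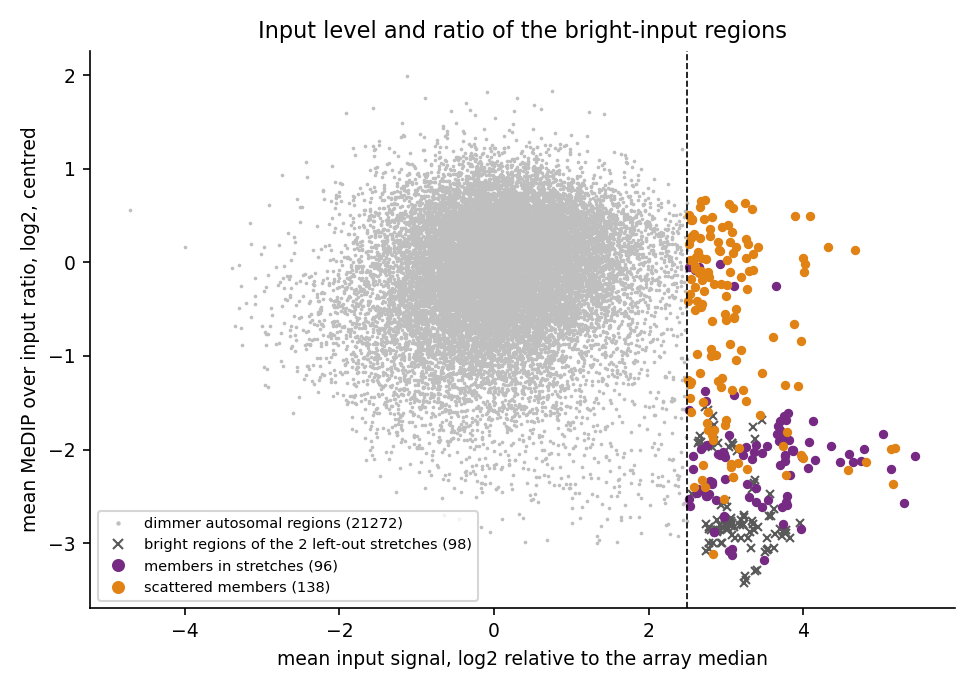
Mean ratio against mean input signal (both log2) of every autosomal region; the dashed line is the limit of 2.5, purple and orange points are members in stretches and scattered members, and crosses are the bright regions of the 2 stretches not counted. Most purple points lie near −2, and orange points form a group near −2 and another near 0.

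Bright input took different forms in these groups. A region's brightest and dimmest probes differed by a median of 3.06 in stretches and 4.63 among scattered members, against 4.87 over all autosomal regions. In 26 members every probe was at 2.5 or above, 14 of them in stretches and 12 scattered, a count that the rule's own signal fixes in part. The 46 scattered members with a ratio above 0 had a median probe range of 6.65, and in 0 of them was every probe bright. For example, 1 of the 3 probes of chr10:6605679-6606240 had an input of 5.89, and its other probes had 1.74 and 2.10. A repeated layout was found in 1 of the 46. Whether these members are multi-copy sequence was not tested.

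Probe length separated the same groups. Probe length on such arrays is varied to even out melting temperature, so short probes usually hold more G and C. The shortest probes, of 45 bp, made up 30.9% of probes in stretches and 53.7% in scattered members, against 50.7% over all autosomal regions. Among scattered members they made up 82.9% where the ratio was above 0, 59.3% where it was between 0 and −1, and 27.4% where it was under −1. Across the 234 members the ratio and the share of 45-bp probes had a Spearman correlation of 0.73, and across all 21604 autosomal regions it was 0.66. The points of each share the same arrays, and their base composition was not measured.

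The first comparison asked where the 2 groups of offspring differed in MeDIP over input. The ratio was higher in inulin offspring at 47 members and lower at 5, or 52 of 234 (22.2%), by limma with Benjamini-Hochberg adjustment over all 22574 regions and a threshold of 0.05. Over all regions 10.3% were called, 7.44% higher and 2.9% lower. The median difference, inulin minus obesity, was 0.18 over the members and 0.03 over all regions. The groups did not overlap at 99 members in the higher direction and at 23 in the lower, where 21.3% and 15.5% of all regions did not. These counts include 36 members whose mean input was under 2.5 in a group and were not split by it. At those members the ratio differences are a description. Members with the same probe layout may share target sequence, so the members were not counted as independent of each other.

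This direction depended on the scaling of the arrays. Under an equal spread of all arrays the calls were 3 higher and 37 lower, under quantile normalization 4 and 24, and with the values that the authors' deposited table holds 4 and 33. Over all regions the same settings called 5.02% (588 higher, 546 lower), 3.77% (410 and 440) and 2.51% (219 and 348). The median difference over the members then was −0.077, −0.045 and −0.050. Leaving out inulin replicate 1, 2 or 3 left 1, 1 and 12 calls, and treating the scan of each array as a random block left 1. Of all regions, 0.842%, 0.124% and 2.12% were then called, and 0.0797% with the scan block. Every inulin array came from the same scan, so that block cannot separate scan from group.

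The lowest p on the ratio belonged to chr2:177812846-177814338, in the second stretch on chromosome 2. Its ratio was −1.99, −2.12 and −2.07 in inulin offspring, against −2.75, −2.83 and −2.73 in obesity offspring, a difference of 0.71 (SE 0.0695, adjusted p = 0.00735 by limma). Every inulin sample lay above every obesity sample. It was also the member still called with the scan as a random block (adjusted p = 0.0455 by limma), though that block cannot separate scan from group. Under equal spread its ratio difference was 0.16 and was not called (adjusted p = 0.251 by limma). Its MeDIP signal was 1.57, 1.46 and 1.26 in inulin offspring, against 0.59, 0.60 and 0.39 in obesity offspring, and its input differed by 0.21 (adjusted p = 0.150 by limma).

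The next 4 members with a higher ratio reached it through different channels. At chr14:45118502-45120277 the ratio averaged −1.90 ± 0.01 in inulin offspring and −2.40 ± 0.11 in obesity offspring (SD, n = 3 each; adjusted p = 0.0134 by limma). At chr2:177574742-177576221 it averaged −1.87 ± 0.05 in inulin offspring and −2.38 ± 0.11 in obesity offspring (adjusted p = 0.0135 by limma), and both input and MeDIP were higher there, by 0.64 and 1.13. The input differed most at the probe 254 bp from the first: 7.07, 6.94 and 6.56 in inulin offspring, against 4.19, 3.56 and 4.30 in obesity offspring. The probe at 925 bp went the other way, with 2.28, 2.28 and 1.93 in inulin offspring, against 2.59, 2.80 and 2.51. At chr7:16870635-16871126 it averaged −0.27 ± 0.16 in inulin offspring and −0.99 ± 0.18 in obesity offspring (adjusted p = 0.0138 by limma), with an input difference of −0.04. At chr5:94499201-94500674 it averaged −2.41 ± 0.03 in inulin offspring and −2.83 ± 0.05 in obesity offspring (adjusted p = 0.0147 by limma), and there the input was lower by 0.62. Under equal spread the call was lost at 3 of these 4: the difference was 0.02 at chr14:45118502-45120277, −0.03 at chr2:177574742-177576221 and −0.22 at chr5:94499201-94500674, against 0.57 at chr7:16870635-16871126, still called. At chr5:94499201-94500674, where 35.7% of spots were marked as outliers, the difference was 0.18 (adjusted p = 0.330 by limma) with those spots left out and no fill. Of its 7 probes, 1 was marked on all arrays and was left out of both fits.

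Of the 47 members with a higher ratio, 28 had a lower input in inulin offspring and 38 a higher MeDIP signal. Of all 52 ratio calls, 21 were also called on the input, 16 on the MeDIP signal and 20 on neither. The ratio is MeDIP over input, so a call of a higher ratio already favours a lower input and a higher MeDIP signal. These counts were not made over all called regions and are a description.

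The 5 members called lower on the ratio included 3 of the first stretch on chromosome 5. At chr5:14943996-14945649 the ratio was −2.02, −2.02 and −2.13 in inulin offspring, against −1.36, −0.99 and −1.64 in obesity offspring, a difference of −0.73 (SE 0.140, adjusted p = 0.0202 by limma). The other 2 there were chr5:15032508-15034155 at −0.33 and chr5:14978403-14980106 at −0.35. Outside it were chr8:126040194-126040641 at −0.36 and chr13:21494125-21494590 at −0.38, both scattered, and the input of the last was under 2.5 in obesity offspring.

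The second comparison took the input itself. The rule used the mean of this signal over both groups, so a region can owe its place to the group in which it was brighter. After replacement of marked spots, which the rule kept, 36 members had a mean under 2.5 in a group. They were 11 in inulin and 27 in obesity offspring, with 2 counted in both. The input differences of all 36 are a description. Input was higher in inulin offspring at 62 members and lower at 33, or 95 of 234 (40.6%) by limma, against 19.3% of all regions, 13.8% higher and 5.43% lower. Of these calls, 45 higher and 28 lower were at the 198 members whose mean was 2.5 or more in both groups. The median difference was 0.06 over the members and 0.06 over all regions. The groups did not overlap at 76 members in the higher direction and 55 in the lower, against 28.8% and 12.2% of all regions. Quantile normalization gave 8 higher and 26 lower, with a median difference of −0.19, and equal spread gave 89 higher and 7 lower. These settings called 10.6% (1316 higher, 1075 lower) and 21.7% (3541 and 1351) of all regions. Leaving out inulin replicate 2 or 3 left 60 and 62 calls, and the scan as a random block left 58. Of all regions, these settings called 8.54%, 10.4% and 9.37%.

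The first stretch on chromosome 5 had the highest input difference of the 10. All 9 of its members were called higher in inulin offspring, by 0.86 to 1.48 with a median of 0.95, and 8 of the 9 were above 2.5 in both groups. The median input of the stretch was 4.58, 4.43 and 4.25 in inulin offspring, against 3.47, 3.64 and 3.31 in obesity offspring. Every inulin sample lay above every obesity sample. The 3 regions flanking the stretch had a median input of 0.37 and a median difference of −0.04.

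In chr5:14943996-14945649 the input was 4.69, 4.73 and 4.71 in inulin offspring, against 3.56, 3.76 and 3.55 in obesity offspring (difference 1.08, SE 0.0790, adjusted p = 0.000237 by limma). In chr5:15162387-15164044 it averaged 4.29 ± 0.11 in inulin offspring and 3.34 ± 0.14 in obesity offspring (SD, n = 3 each; adjusted p = 0.000719 by limma). The brightest member, chr5:15219590-15221207, averaged 4.67 ± 0.10 in inulin offspring and 3.72 ± 0.17 in obesity offspring (adjusted p = 0.000759 by limma). The remaining named member, chr5:15185382-15186836, was under the limit in obesity offspring, so its values are given as a description. They were 3.95, 3.91 and 3.73 in inulin offspring, against 2.35, 2.28 and 2.51 in obesity offspring.

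The MeDIP signal of this stretch was also higher, by a median of 0.63 with 5 of 9 members called, and the ratio was lower, by −0.29 with 3 of 9 called. All 9 input calls held with the scan as a random block and with equal spread, while quantile normalization gave a median of 0.44 and 1 call. The scan block cannot separate scan from group, because every inulin array came from scan 1. The ratio of the stretch kept its direction under each scaling. It was −0.71 with equal spread, −0.67 with quantile normalization and −0.65 in the authors' deposited table. Each of these gave 9 of 9 members called lower. With the scan or the position on the slide as a block, limma called 0 of 9 members on the ratio, and 0.0797% and 0% of all regions. With outliers left out and no fill it called 1 of 9 lower. The MeDIP calls also fell to 0 with either block, as they did over all regions.

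In the second stretch on chromosome 5 the input was also higher in inulin offspring. Its median input was 4.13, 4.05 and 3.82 in inulin offspring, against 3.60, 3.58 and 3.32 in obesity offspring, again without overlap. Of its 7 members 6 were called higher on the input, with a median difference of 0.50. Quantile normalization gave a median of 0.10 and 0 calls by limma, and outliers left out with no fill gave 0.55 and 0 calls. The ratio differed by −0.21 with 0 of 7 called by limma, and by −0.56 with 7 of 7 called lower in the authors' deposited table.

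The third stretch on chromosome 5 went the other way on the input. Of its 12 members 9 were called lower in inulin offspring and 0 higher, with a median difference of −0.43. Median input was 3.43, 3.46 and 3.13 in inulin offspring, against 3.57, 3.78 and 3.57 in obesity offspring. At chr5:94499201-94500674 the input was 3.44, 3.45 and 3.26 in inulin offspring, against 4.03, 4.11 and 3.86 in obesity offspring (difference −0.62, adjusted p = 0.00295 by limma). The region chr5:96164822-96166295, with the layout of chr5:94499201-94500674, differed by −0.42 (adjusted p = 0.0119 by limma). A further 3 of the 9 called members share a layout of 3 probes and were under the limit in inulin offspring, so they are a description. They were chr5:95610407-95611128 at −0.69, chr5:95293305-95294026 at −0.62 and chr5:94954093-94954814 at −0.54. The median of the stretch was −0.28 with 3 lower calls under equal spread and −0.74 with 6 under quantile normalization, and with outliers left out and no fill 1 member was called lower and 1 higher.

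In the third stretch on chromosome 4, the input differed by a median of −0.23, with 6 of 21 members called lower and 0 higher. It was −0.05 with 2 calls under equal spread, −0.80 with 11 under quantile normalization and −0.26 with 0 calls by limma where outliers were left out with no fill. On chromosome 7, 4 scattered members, each of 3 probes over 470 bp, were also called lower on the input. They were chr7:15244952-15245421 at −0.50, chr7:15974178-15974647 at −0.79, chr7:16132487-16132956 at −0.47 and chr7:16335588-16336057 at −0.44. The last pair was fitted without obesity replicate 2, where every spot was marked as an outlier. At chr7:16335588-16336057, 1 of the 3 probes was marked on all arrays and left out. Obesity replicate 2 was kept at chr7:15974178-15974647. The input there was 4.97, 5.09 and 4.78 in inulin offspring, against 5.40, 6.23 and 5.59 in obesity offspring.

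**Figure D3:**
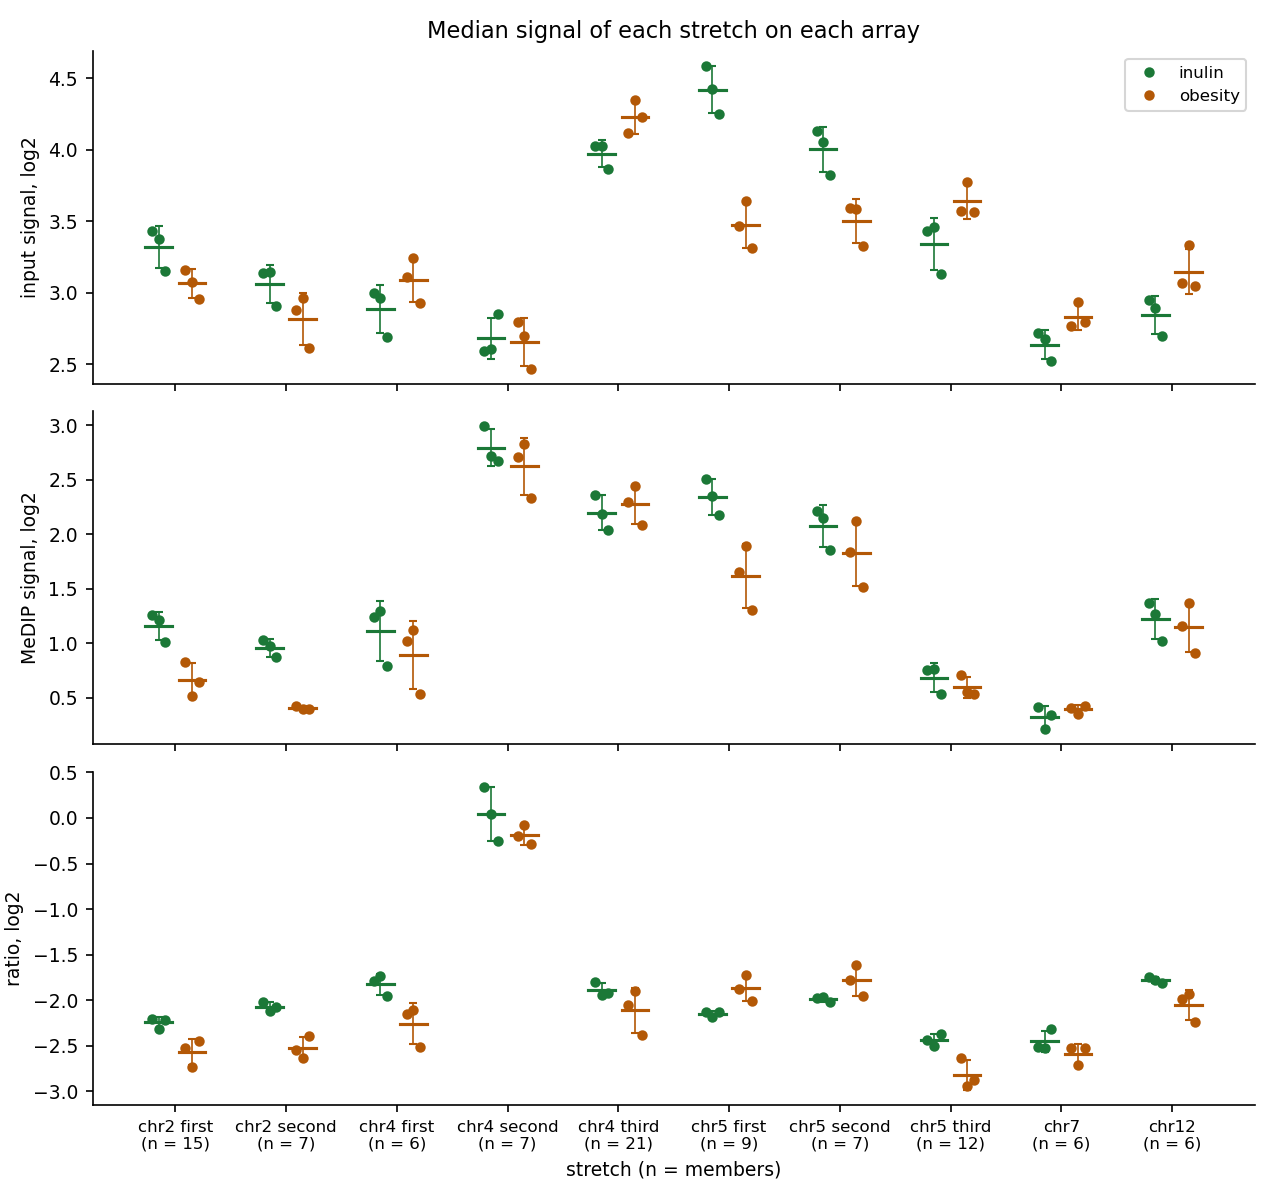
Median input signal, MeDIP signal and ratio (log2) over the members of each stretch on each array, inulin at the left and obesity at the right of each pair; points are arrays, bars are means and error bars are SD (n = 3). Inulin arrays lie above obesity arrays in both channels at the first stretch on chromosome 5, and below them on the input at the third.

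The third comparison took the MeDIP signal alone. It was higher in inulin offspring at 66 members and lower at 3, or 69 of 234 (29.5%) by limma, against 9.3% of all regions, 8.1% higher and 1.2% lower. The median difference was 0.20 over the members and 0.08 over all regions. The groups did not overlap at 92 members in the higher direction and 7 in the lower, against 29.2% and 9.54% of all regions. These counts include the 36 members whose mean input was under 2.5 in a group and were not split by it. At those members the MeDIP differences are a description. With the replicate number as a block, 112 members were called, 103 higher and 9 lower, and 20.5% of all regions. Without inulin replicate 1 or 2, limma called 0 members (91 and 95 at an unadjusted p under 0.05), and without inulin replicate 3 or obesity replicate 1 it called 28 and 36. Of all regions, the first 2 settings called 0 and the others 1.72% and 2.49%. The scan as a random block also left 0 calls by limma (76 at an unadjusted p under 0.05), and 0 calls over all regions.

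MeDIP calls concentrated on chromosome 2 among the stretches. In its first stretch 11 of 15 members were called higher, with a median difference of 0.64, and in its second 5 of 7, with a median of 0.63. The median MeDIP signal of the first stretch was 1.25, 1.21 and 1.01 in inulin offspring, against 0.83, 0.52 and 0.65 in obesity offspring. That of the second was 1.03, 0.97 and 0.87 in inulin offspring, against 0.43, 0.40 and 0.39 in obesity offspring. The groups overlapped in neither.

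The brightest member of the first stretch, chr2:175032082-175033562, had a MeDIP signal of 2.62, 2.46 and 2.16 in inulin offspring, against 1.36, 0.89 and 1.13 in obesity offspring (difference 1.29, adjusted p = 0.0110 by limma). Its input was higher too, by 0.71, but not evenly over its probes. The probe 257 bp from the first read 6.71, 6.66 and 5.92 in inulin offspring, against 4.22, 3.33 and 3.88 in obesity offspring. The groups overlapped at the probe at 925 bp, with 2.85, 2.79 and 2.44 in inulin offspring, against 2.57, 2.92 and 2.61. The 3 regions of the shared 7-probe layout, starting at 175261035, 176096936 and 176420785, had MeDIP differences of 1.19, 0.62 and 0.85. The MeDIP difference of these stretches stayed positive under equal spread (0.70 and 0.67) and quantile normalization (0.59 and 0.61). Their ratio was higher by 0.39 and 0.31, but differed by −0.17 and −0.20 under equal spread.

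Among scattered members the lowest p on the MeDIP signal was at chr19:32177131-32177591, with 3.11, 3.19 and 3.16 in inulin offspring, against 2.40, 2.22 and 2.35 in obesity offspring (difference 0.83, adjusted p = 0.0110 by limma). The next was chr5:139605317-139606491, with 5.67, 5.64 and 5.23 in inulin offspring, against 4.40, 4.05 and 4.09 in obesity offspring. Its input differed by 1.36 and its MeDIP signal by 1.34, so that the ratio differed by 0.00. The 3 members called lower were chr7:16132487-16132956 at −0.37, chr7:15244952-15245421 at −0.45 and chr2:150917625-150919324 at −0.34, and the input of the last was under 2.5 in inulin offspring.

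Input and MeDIP differences had the same sign at 179 of the 234 members. Of the 62 members called higher on the input, 62 had a higher MeDIP signal, and of the 33 called lower, 28 had a lower one. Both channels were called at 46 members, 43 higher and 3 lower in both, with 0 in opposite directions. Of the 62, 17 were under the limit in obesity offspring, and of the 33, 5 were under it in inulin offspring. These joint counts were not made over all regions, so whether the bright regions differ from others in them was not tested. Input was lower in inulin offspring at all members of the third and the first stretch on chromosome 4. MeDIP was higher there at 7 of 21 and 6 of 6 members. Input was also lower at all members of the stretches on chromosomes 12 and 7, and MeDIP was higher at 5 of 6 and 3 of 6. By limma, 0 MeDIP differences were called in these stretches.

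**Figure D4:**
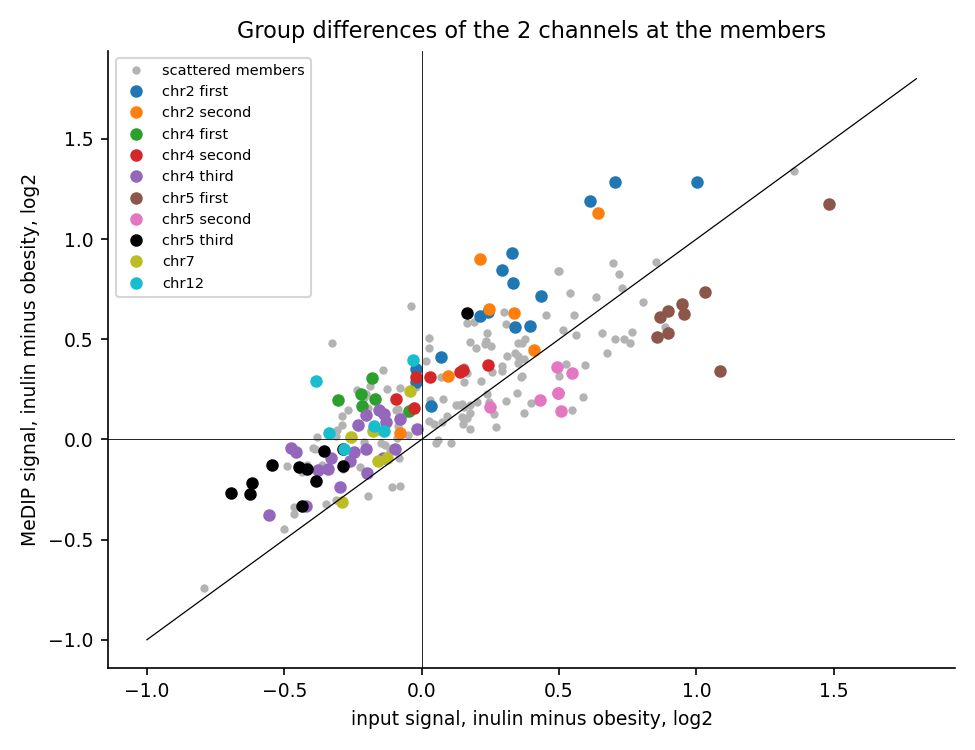
Difference in MeDIP signal against difference in input signal (inulin minus obesity, log2) at the 234 members, coloured by stretch; the diagonal marks equal differences, where the ratio does not differ. The first stretch on chromosome 5 lies at the right and below the diagonal, those on chromosome 2 above it, and the third on chromosome 5 at the left but for 1 member.

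The remaining stretches had few calls. The second stretch on chromosome 4 had 0 calls by limma on all 3 measures, and so did the stretch on chromosome 7. The stretch on chromosome 12 had 3 of 6 members called higher on the ratio and 2 called lower on the input. The first on chromosome 4 had 2 of 6 called higher on the ratio and 1 lower on the input.

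All 3 inulin arrays came from scan 1, obesity replicates 1 and 3 from scan 2 and obesity replicate 2 from scan 3. Scans were told apart by the scan identifier of the file headers, not by a slide identifier. Group and scan therefore cannot be told apart in any of these comparisons, other than through the spread among the obesity arrays. Whether copy number, DNA amount or hybridisation moved the input of the bright regions was not tested.

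**Figure D5:**
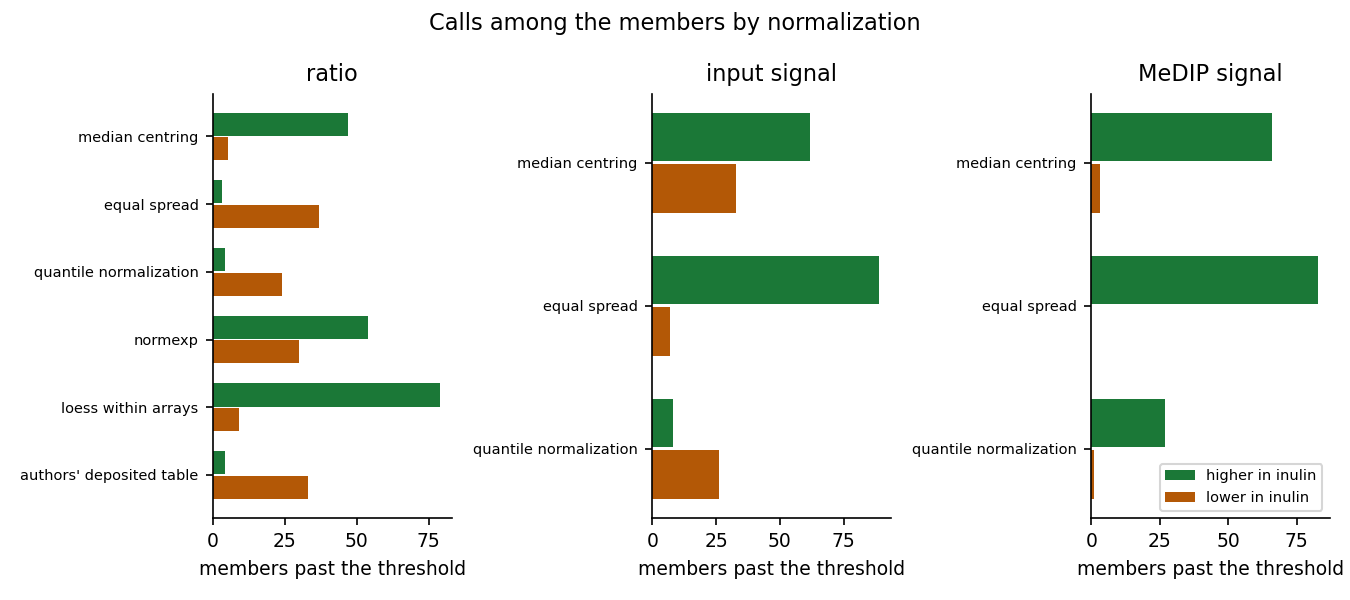
Number of the 234 members called higher (green) and lower (brown) in inulin offspring on each measure, under median centring and the other normalizations. Higher calls outnumber lower calls on the ratio under median centring, normexp and loess, and lower calls outnumber higher calls under equal spread, quantile normalization and in the authors' deposited table. Over all regions, not drawn, higher ratio calls outnumber lower ones under median centring, loess and equal spread. Lower ones outnumber higher ones there in the rest.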

How the data were processed

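The 6 arrays analysed were 2-colour arrays, 3 per group. Per the file headers, the deposited intensity values are processed signals of Agilent Feature Extraction 11.0.1.1 on the mm9 build, already background-subtracted and dye-normalized; the deposited log10 ratio of red over green and the flags for outliers, saturation and background come from the same files. The authors' deposited value table holds a score whose scale and centring are not stated, and was used as an alternative. Of its columns, 0 were left unused.

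Signals were taken as log2, centred on each array's median over the 174638 non-control probes, and averaged over the probes of a region. Spots marked as outliers were replaced by a fit of probe and array within the region, a choice made after the data were seen; left out with no fill, they shift a region's mean between arrays, and 33 ratio, 16 input and 5 MeDIP calls remained. Differences were tested with limma 3.58.1 in R 4.3.3, two-sided, over all 22574 regions. The tests were checked on simulated data with independent noise at each probe and array. That check cannot cover noise shared by the probes of a region or by the arrays of a scan. The members, lists and tests were chosen with earlier results of these data known. Named regions were the 8 brightest members, the 5 per direction with the lowest p on the ratio, the 3 per direction on the input and on the MeDIP signal, the 3 highest and lowest ratios, those next to the limit, and the stretches with their brightest member. Members with the same layout as these and chr7:15974178-15974647 with its neighbours were also described. Deviations from the group means, in same-numbered arrays of the 2 groups, correlated at 0.19, 0.30 and 0.53 on the MeDIP signal. They correlated at −0.17, 0.31 and 0.37 on the ratio and at −0.17, 0.21 and 0.10 on the input. Differently numbered arrays correlated at −0.37 to 0.18 on the MeDIP signal, −0.42 to 0.24 on the ratio and −0.26 to 0.26 on the input. The number of arrays limits the precision.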

Additional observations from a re-analysis of the deposited data

How the results depend on the processing

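With 3 arrays a group, an exact permutation test of a single region cannot go below p = 0.1, so calls rest on limma's pooled spread. Leaving out 1 array at a time gave 1 to 58 ratio calls, 60 to 81 input calls and 0 to 87 MeDIP calls among the members, against 52, 95 and 69. Over all regions it called 0.124% to 13.1%, 8.54% to 15.5% and 0% to 13.3%, against 10.3%, 19.3% and 9.3%. With the replicate number as a block the counts were 88, 120 and 112, against 17.0%, 22.4% and 20.5% of all regions. The scan as a random block gave 1, 58 and 0, against 0.0797%, 9.37% and 0% of all regions. Position on the slide as a block, added after seeing the data, gave 0, 63 and 0 (105, 130 and 102 at an unadjusted p under 0.05). It called 0%, 10.4% and 0% of all regions. Outliers left out with no fill, also added later, gave 33, 16 and 5, against 7.42%, 2.14% and 0.253% of all regions. Quantile normalization gave 28, 34 and 28, against 3.77%, 10.6% and 5.09% of all regions. On the ratio alone, normexp gave 84, loess 88 and the median of probes 15, against 16.5%, 15.7% and 3.25% of all regions. A limit of 2.0 gave 116 calls among 544 members and a limit of 3.0 gave 33 among 124, since the number of members changes with the limit.

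The median ratio difference of the members turned to −0.077 under equal spread, −0.045 under quantile normalization and −0.050 in the authors' deposited table, and that of the input to −0.19 under quantile normalization. The ratio also turned at chr2:177574742-177576221 under equal spread (−0.029) and at chr5:94499201-94500674 under equal spread (−0.22) and quantile normalization (−0.018). Under equal spread, median ratio differences of stretches turned to −0.20 (the third on chromosome 4), −0.0096 (the first on chromosome 4), −0.17 and −0.20 (the first and the second on chromosome 2), −0.27 (the third on chromosome 5) and −0.039 (chromosome 12). Under quantile normalization they turned to −0.18 (the third on chromosome 4), −0.093 (the third on chromosome 5), −0.084 (the second on chromosome 2) and −0.034 (chromosome 12), and the input of the second on chromosome 2 turned to −0.089. In the authors' deposited table they turned to −0.15 (the third on chromosome 4), −0.036 (the first on chromosome 4), −0.041 (the third on chromosome 5), −0.061 (the second on chromosome 2) and −0.082 (chromosome 12). The cause was not tested.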
